A study of Mus musculus with 12 samples.

Results

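The comparison described here sets livers of mice given XCT790 plus T3 against livers of mice given T3 alone. It rests on 6 of the 12 Illumina bead arrays in the series, 3 in each of these groups, chosen by their labels. XCT790 is an inverse agonist of ESRRA, the estrogen-related receptor alpha, and T3 is the active thyroid hormone, given here as liothyronine. All mice were male C57BL/6 of 8 weeks with free access to food and water, and compounds were injected daily into the abdomen. Mice with both compounds had XCT790 for 4 days and T3 on the last 3, and mice with T3 alone had T3 for 3 days. The other 6 arrays, with XCT790 alone for 4 days and with no injection (the controls), were used to estimate the spread and to give the effect of XCT790 without hormone. In that effect XCT790 and injection itself cannot be told apart. The labels do not say whether mice given T3 alone had a vehicle injection on the first day, so XCT790 and 1 more day of injection cannot be told apart. Nothing in the labels ties each array of a group to its own mouse. A p-value here therefore reflects array-to-array spread, part or all of which may be technical.

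ESRRA is an orphan nuclear receptor without a known natural hormone. It works with the coactivators PGC-1alpha and PGC-1beta on genes of the respiratory chain, the citric acid cycle and fatty acid oxidation, and an inverse agonist lowers its activity below the level it has with no ligand. T3 acts through its own nuclear receptors, and in liver it is known to raise lipid synthesis, fatty acid oxidation and the turnover of mitochondria. The comparison measures how gene expression of the liver under hormone responds to XCT790. What part of that response goes through ESRRA was not tested.

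The promoters of the called genes are shown first, as a description of the sequence around the start of each gene. Each window runs from 250 bases before to 50 bases after the start of the gene in RefSeq (build GRCm38.p6), written 5′ to 3′ along the gene. Of the 9 genes that passed the test below, 8 had a window. Cyp2b10, at chr7:25897408-25897707 on the plus strand, is shown because it changed most in measured size and held none of the motifs searched. A1bg, at chr15:60921221-60921520 on the minus strand, changed with the smallest p. Acnat2, at chr4:49408102-49408401 on the minus strand, is the second of its windows, and Arsa, at chr15:89477375-89477674 on the minus strand, is the gene with lower signal that held a motif. Capitals mark the motif matches.
Cyp2b10: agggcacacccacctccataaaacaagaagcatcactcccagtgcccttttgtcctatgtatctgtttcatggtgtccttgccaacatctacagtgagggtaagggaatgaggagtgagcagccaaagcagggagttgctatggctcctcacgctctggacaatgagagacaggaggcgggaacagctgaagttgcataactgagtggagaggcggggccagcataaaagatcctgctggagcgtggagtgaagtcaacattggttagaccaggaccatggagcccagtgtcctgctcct
A1bg: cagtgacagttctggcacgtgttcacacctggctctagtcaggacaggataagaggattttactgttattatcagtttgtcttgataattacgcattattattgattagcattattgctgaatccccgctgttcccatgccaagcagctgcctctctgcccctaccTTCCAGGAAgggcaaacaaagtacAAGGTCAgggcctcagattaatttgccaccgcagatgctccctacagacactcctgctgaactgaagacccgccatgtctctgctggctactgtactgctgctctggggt
Acnat2: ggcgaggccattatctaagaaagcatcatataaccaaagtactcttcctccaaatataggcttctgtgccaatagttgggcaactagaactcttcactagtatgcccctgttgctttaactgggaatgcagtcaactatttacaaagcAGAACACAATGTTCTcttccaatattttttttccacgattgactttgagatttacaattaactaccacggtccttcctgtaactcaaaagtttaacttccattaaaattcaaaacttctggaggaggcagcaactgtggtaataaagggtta
Arsa: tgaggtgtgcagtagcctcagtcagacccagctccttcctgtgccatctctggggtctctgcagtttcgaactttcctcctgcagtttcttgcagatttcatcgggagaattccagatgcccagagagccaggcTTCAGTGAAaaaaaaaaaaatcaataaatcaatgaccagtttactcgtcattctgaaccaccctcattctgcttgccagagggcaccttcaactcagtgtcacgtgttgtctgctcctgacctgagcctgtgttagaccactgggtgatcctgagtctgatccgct

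Motifs were read on both strands within these windows, as a description of letters only. Sequence outside the windows was not searched, so a motif absent from a window may lie elsewhere. A named gene counts if any of its windows holds a match, while shares over all windows are per window, an unlike measure. The ESRRA response element, TCA followed directly by the half-site AGGTCA, was in 0 of the 8 called genes with a window and in 2 of 135 named genes with one (1.48%), against 0.423% of all 32851 windows. Its core AAGGTCA, which lies inside the longer element and was added after the values were seen, was in A1bg, starting at base 191 of the window shown. It was in 5.93% of named genes, against 4.72% of all windows. The thyroid hormone receptor repeat, AGGTCA repeated after a gap of 4 bases, was in 0 named genes, against 0.0152% of all windows. The glucocorticoid receptor element, AGAACA and TGTTCT with a gap of 3 bases, was in 2 named genes, among them Acnat2 (starting at base 149). It was in 3 of all windows (0.00913%), and some named genes were picked from a list of glucocorticoid-induced genes. The STAT5-type letters, TTC and GAA with a gap of 3 bases, also added after the values were seen, were in A1bg (base 167) and Arsa (base 135). They were in 8.15% of named genes, against 8.3% of all windows.

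XCT790 changed few genes in hormone-treated liver. Of 9747 genes tested, 9 passed (0.0923%), 7 higher (0.0718%) and 2 lower (0.0205%) with XCT790 plus T3 (limma over all 12 arrays, two-sided, Benjamini-Hochberg adjusted p under 0.05). The 7 were Cyp2b10, Cux2, A1bg, Mycl, Dlx1as, Acnat2 and Grhl1, and the 2 were Emilin1 and Arsa. Below that threshold the signal was wider. At an unadjusted p under 0.05, 1242 genes passed (12.7%), where 5% would if nothing changed, with 621 higher (6.37%) and 621 lower (6.37%). That even split goes with quantile normalization: it was 63 higher and 1759 lower with median scaling over all probes, and 934 higher and 396 lower with median scaling over kept probes. The 3 arrays with XCT790 plus T3 lay entirely above the 3 with T3 alone for 1016 genes (10.4%) and entirely below for 863 (8.85%). Differences were small: 29 genes reached 1 on the log2 scale, and for 9410 genes (96.5%) the 95% interval of the difference lay within −1 to 1. The smallest difference that passed was 0.62 in size, and the median standard error was 0.14.

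How many genes passed depended on single arrays and on scaling. Without array 1 or 2 of XCT790 plus T3 the count was 1 and 4, without array 2 or 3 of T3 alone 3 and 5, without array 1 of XCT790 alone 4, and without control array 1, 2 or 3 it was 3, 5 and 5. Before scaling, the arrays with XCT790 plus T3 were dimmer, with median log2 signals of 6.51 to 6.76 against 6.93 to 7.04 for T3 alone. Quantile normalization removes such a shift. With median scaling over all probes in its place, the median difference of all genes was −0.22 and not 0.01, and 18 genes passed, 3 higher and 15 lower. The share of probes detected was 31.9% to 33.8% with XCT790 plus T3 and 32.9% to 35.3% with T3 alone. Correlations between arrays over all genes were 0.989 to 0.991 within XCT790 plus T3, 0.990 to 0.991 within T3 alone and 0.987 to 0.990 between them. In whole liver, fewer cells of a type and less RNA per cell cannot be told apart in any value below.

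**Figure D1:**
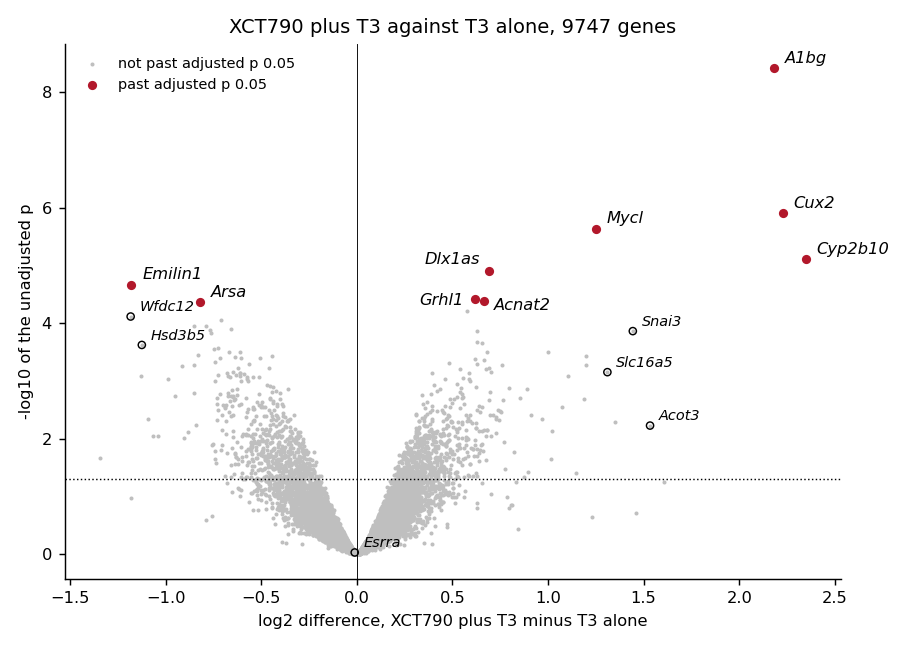
Each point is 1 of the 9747 genes tested, with the log2 difference of XCT790 plus T3 minus T3 alone on the x axis and −log10 of the unadjusted p on the y axis. Red points are the 9 genes past an adjusted p of 0.05, named, and the open circles are Hsd3b5, Snai3, Wfdc12, Esrra, Slc16a5 and Acot3, which did not pass. The dotted line is an unadjusted p of 0.05. A1bg stands highest, and Esrra sits at the bottom near 0.

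A1bg and Cux2, known to differ between male and female liver, were among the 3 largest changes that passed. A1bg, a secreted plasma glycoprotein known as female-biased in mouse liver, had a measured rise by 2.18 (log2 units, SE 0.14, adjusted p = 3.8e-05, limma). Cux2, a homeobox factor that is female-biased in mouse liver and known to repress male-biased genes, rose by 2.23 (SE 0.25, adjusted p = 0.00616, limma). Hsd3b5, a male-biased steroid 3-ketoreductase, had a difference of −1.12 (SE 0.22) that did not pass (adjusted p = 0.105, limma). All arrays are of male mice.

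A1bg had log2 intensities of 7.68, 7.40 and 7.12 with XCT790 plus T3, against 5.32, 5.00 and 5.33 with T3 alone. With T3 alone A1bg was detected on 2 of 3 arrays, so the measured rise is no exact size. The groups did not overlap, and the gap was far wider than the spread within either. With XCT790 alone it had 4.69, 4.71 and 4.65, against 4.85, 4.59 and 4.77 in controls, and it was detected on 0 of these 6 arrays. The interaction test of A1bg passed (measured difference 2.23, SE 0.20, interaction adjusted p = 0.00143, limma). The arrays without hormone were at background, so an effect there could not be measured, and that value is no exact size. Whether the effects of XCT790 on A1bg differed with and without T3 is therefore not settled. A1bg passed in 24 of 24 alternative settings.

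Cux2 had 9.33, 9.48 and 8.91 with XCT790 plus T3, against 7.53, 6.56 and 6.95 with T3 alone. Every array with both compounds stood above every array with T3 alone. It had 4.80, 4.57 and 5.33 with XCT790 alone, against 4.52, 4.60 and 4.87 in controls, and was detected on 1 of 3 and 0 of 3 of these arrays. The measured difference of both effects, 1.99 (SE 0.35, interaction adjusted p = 0.0362, limma), rests on signals at background. It is no exact size and does not settle whether the effects differed. It passed in 11 of 23 alternative settings and in 3 of 12 that left out 1 array, those without array 1 of T3 alone, array 3 of XCT790 alone or array 3 of XCT790 plus T3 (adjusted p up to 0.0956, limma). A second Cux2 probe differed by 1.20 with XCT790 plus T3. The call held in 22 of 24 settings and was lost without array 1 of XCT790 plus T3 (adjusted p = 0.0504, limma) and with only the 6 arrays given T3 (adjusted p = 0.0689).

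Hsd3b5 had 10.35, 10.96 and 11.28 with XCT790 plus T3, against 11.75, 12.08 and 12.13 with T3 alone. The groups did not overlap. It had 12.46, 12.12 and 11.85 with XCT790 alone, against 13.35, 13.52 and 13.51 in controls, where the fall by 1.32 passed (adjusted p = 0.00512, limma). The difference of both effects was 0.19 (SE 0.31, interaction adjusted p = 0.869, limma). Hsd3b5 belongs to a family of closely related genes, and what its probe reads of them was not tested.

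Of 28 genes tested of growth hormone signalling and sex bias, 2 passed the adjusted test, both higher, and at an unadjusted p under 0.05 there were 6 higher and 4 lower (35.71%, against 12.7% of all genes). The median difference was −0.02. These counts at p were 2 and 5 with median scaling over all probes and 6 and 3 over kept probes. Leaving out 1 array gave 2 to 6 higher and 3 to 4 lower. This list, like the others, was chosen with earlier results of these data known. Ugt2b1, a glucuronosyltransferase, had 10.59, 10.65 and 10.75 with XCT790 plus T3, against 11.02, 11.41 and 11.27 with T3 alone. Its groups did not overlap (log2 difference −0.57, SE 0.13). Cyp17a1, a steroid hydroxylase and lyase, differed by 0.55 (SE 0.22). C6, a complement component that is male-biased in mouse liver, differed by −0.51 (SE 0.13). None of these 3 passed the adjusted test.

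**Figure D2:**
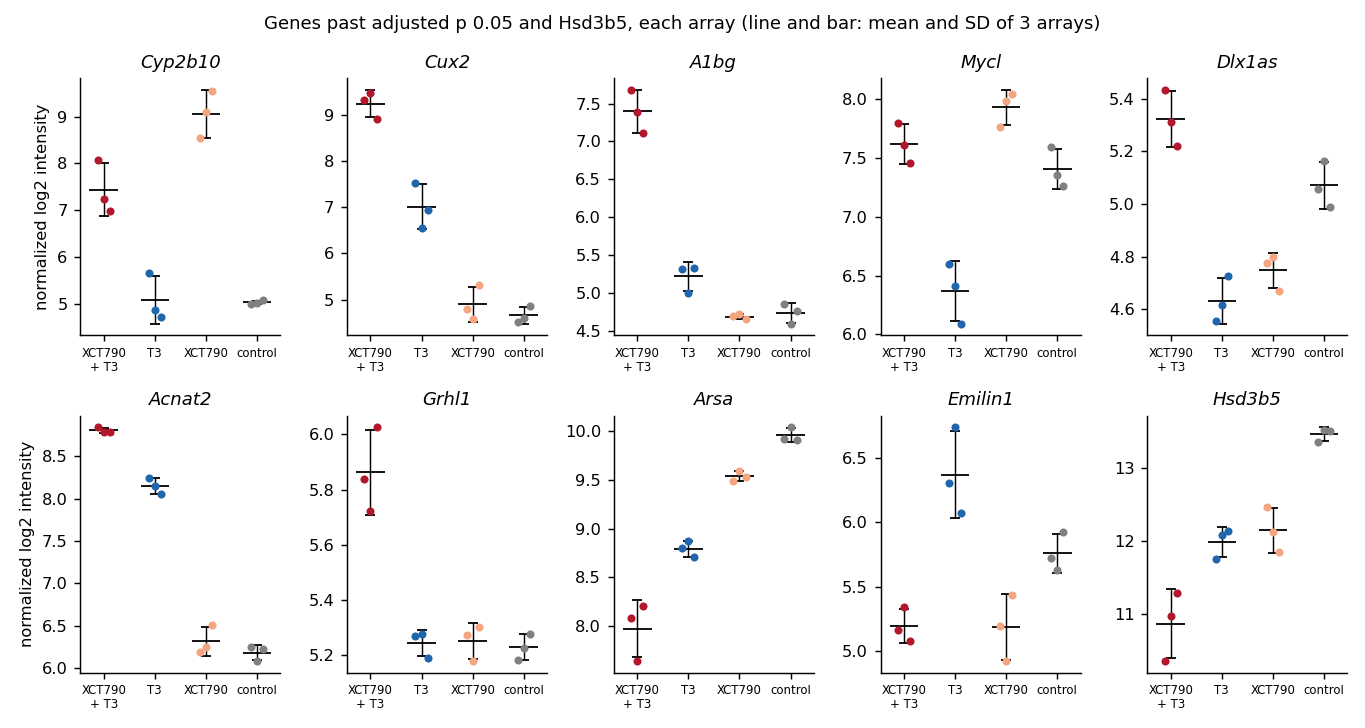
Log2 intensity of the 9 genes that passed and of Hsd3b5, 1 panel per gene, with 1 point per array and the mean ± SD of each group of 3. Groups run from XCT790 plus T3, T3 alone and XCT790 alone to control. In the 7 higher genes every array with XCT790 plus T3 lies above every array with T3 alone, and in Emilin1, Arsa and Hsd3b5 every one lies below.

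Cyp2b10, the cytochrome P450 known as the classic target of the xenobiotic receptor CAR, rose with XCT790 both with and without hormone. It had 8.07, 7.25 and 6.98 with XCT790 plus T3, against 5.66, 4.88 and 4.72 with T3 alone, a measured rise by 2.35 (SE 0.31, adjusted p = 0.0190, limma). With XCT790 alone it had 8.54, 9.09 and 9.55, against 5.01, 5.02 and 5.08 in controls. It was detected on 1 of 3 arrays with T3 alone, so the rise with hormone is no exact size. On controls it was detected on 0 of 3 arrays, so XCT790 alone was at least 14.8-fold higher than controls (adjusted p = 6.11e-05, limma). The arrays with XCT790 lay above those without in both settings. The test of the difference of both effects did not pass (interaction adjusted p = 0.126, limma), and its size is not given because the controls were at background. The call with hormone was lost without array 1 or 2 of XCT790 plus T3, array 2 or 3 of T3 alone or control array 1 (adjusted p = 0.0504 to 0.114, limma).

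Other genes controlled by CAR and its relative PXR, the receptors that sense foreign compounds, were measured in a list of 40. Cyp2b10 alone passed, and at an unadjusted p under 0.05 there were 8 higher and 2 lower (25%, against 12.7% of all genes), with 2 higher and 6 lower under median scaling over all probes. Their median difference was 0.06, or −0.14 under that scaling. Abcc3, an export pump for conjugates, had 7.90, 7.87 and 7.71 with XCT790 plus T3, against 7.35, 7.24 and 7.04 with T3 alone. Its groups did not overlap (difference 0.62, SE 0.13, adjusted p = 0.112, limma). Nr1i3, which encodes CAR itself, had 9.76, 9.76 and 9.98 with XCT790 plus T3, against 9.49, 8.97 and 9.46 with T3 alone. It differed by 0.53 (SE 0.15) with hormone and rose by 0.95 without (adjusted p = 0.00471, limma). Cyp2c29 and Cyp2c54, P450s of a large family of near copies, differed by 0.70 (SE 0.20) and 0.55 (SE 0.13) with hormone. All genes named here lay on the higher side. Of the 40 in the list, 26 were above 0 and 14 below, the lowest at −0.52.

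Mycl, a transcription factor of the Myc family, rose by 1.25 (SE 0.15, adjusted p = 0.00752, limma). It had 7.80, 7.60 and 7.46 with XCT790 plus T3, against 6.60, 6.41 and 6.09 with T3 alone. With XCT790 alone it had 7.76, 7.98 and 8.04, against 7.59, 7.35 and 7.26 in controls. T3 alone was thus the group with the lowest signal, and the other groups lay at similar heights. The effect without hormone, 0.53 (SE 0.15), did not pass (adjusted p = 0.0712, limma), and neither did the difference of both effects (interaction adjusted p = 0.17). Mycl was lost without array 1 of XCT790 plus T3 (adjusted p = 0.0504, limma), under median scaling over all probes (adjusted p = 0.0786) and with only the 6 arrays given T3 (adjusted p = 0.0930).

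Acnat2, a peroxisomal acyltransferase that joins fatty acids to amino acids, rose by 0.66 (SE 0.11, adjusted p = 0.0470, limma). It had 8.84, 8.79 and 8.80 with XCT790 plus T3, against 8.25, 8.15 and 8.05 with T3 alone. Without hormone it stood lower, at 6.19, 6.24 and 6.51 with XCT790 alone, against 6.24, 6.08 and 6.22 in controls. A second Acnat2 probe differed by 0.34. Grhl1, a grainyhead-family transcription factor of epithelia, rose by 0.62 (SE 0.10, adjusted p = 0.0470, limma). It had 5.84, 5.72 and 6.03 with XCT790 plus T3, against 5.27, 5.28 and 5.19 with T3 alone, close to background. Acnat2 kept its call in 1 and Grhl1 in 0 of 12 settings that left out 1 array (adjusted p of the lost calls 0.0542 to 0.194, limma).

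Dlx1as, an antisense RNA of the homeobox gene Dlx1, had 5.43, 5.31 and 5.22 with XCT790 plus T3, against 4.56, 4.62 and 4.73 with T3 alone. It was detected on 2 of 3 arrays with XCT790 plus T3 and on 0 of 3 with T3 alone (adjusted p = 0.0248, limma). The mean of XCT790 plus T3 was 1.07-fold above the dimmest detected signal on arrays with T3 alone. Not every array with XCT790 plus T3 was above background, so that value is no bound and the rise no exact size. Without hormone Dlx1as had 4.78, 4.80 and 4.67 with XCT790 alone, against 5.06, 5.17 and 4.99 in controls. It was detected on 0 of 3 and 1 of 3 of these arrays. No direction is read from them. The measured difference of both effects, 1.01 (SE 0.14, interaction adjusted p = 0.0121, limma), rests on T3 alone and XCT790 alone, both not above background. It is no exact size and does not settle whether the effects differed. The call with hormone was lost without array 1 or 2 of XCT790 plus T3, any array of T3 alone, array 1 of XCT790 alone or control array 1 (adjusted p = 0.0536 to 0.114, limma).

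Emilin1, a glycoprotein of elastic fibres, had a measured fall by 1.18 (SE 0.18, adjusted p = 0.0351, limma). It had 5.16, 5.34 and 5.08 with XCT790 plus T3, against 6.30, 6.74 and 6.07 with T3 alone. It was detected on 1 and 3 of the 3 arrays, so that fall is no exact size. With XCT790 alone it had 5.20, 4.92 and 5.44, against 5.72, 5.63 and 5.92 in controls, where the difference of −0.57 did not pass (adjusted p = 0.0931, limma). Arsa, the lysosomal arylsulfatase A that degrades sulfatides, fell by 0.82 (SE 0.13, adjusted p = 0.0470, limma). It had 8.08, 7.64 and 8.20 with XCT790 plus T3, against 8.81, 8.87 and 8.71 with T3 alone, and 9.49, 9.59 and 9.54 with XCT790 alone, against 9.93, 10.04 and 9.91 in controls. Arsa was thus lower with XCT790 in both settings, although −0.42 without hormone did not pass (adjusted p = 0.0974, limma). Of 12 settings that left out 1 array, Emilin1 kept its call in 3 and Arsa in 1 (adjusted p of the lost calls 0.0564 to 0.181, limma).

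Further genes with differences near or above 1 did not pass the adjusted test. Snai3, a zinc finger repressor of the Snail family, had 8.78, 8.96 and 8.33 with XCT790 plus T3, against 7.88, 6.82 and 7.04 with T3 alone (difference 1.44, SE 0.26, adjusted p = 0.0742, limma). Kcnk1, a potassium channel, had 8.36, 8.47 and 8.51 with XCT790 plus T3, against 7.21, 6.90 and 7.67 with T3 alone. In both genes the groups did not overlap, and both were dim without hormone. Slc16a5, a monocarboxylate transporter, had 9.02, 9.18 and 8.70 with XCT790 plus T3, against 8.44, 7.37 and 7.15 with T3 alone. It differed by 1.31 (SE 0.29) with hormone and rose by 1.22 without (adjusted p = 0.0363, limma). Trim80, a tripartite motif protein, had a measured difference of 1.20 (SE 0.24) with hormone and a measured rise by 1.22 without (adjusted p = 0.0159, limma). It was detected on 1 of 3 arrays with T3 alone and on 1 of 3 controls, so neither value is an exact size. Obp2a, an odorant-binding lipocalin, differed by 1.20 and Myom3, a sarcomere protein, by 1.10 with hormone. Tdpoz2 was not above background with T3 alone and was at least 1.75-fold higher with XCT790 plus T3.

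On the lower side, Wfdc12, a protease inhibitor with a whey acidic protein domain, had 6.79, 7.25 and 6.93 with XCT790 plus T3, against 8.36, 7.85 and 8.32 with T3 alone (difference −1.18, SE 0.20, adjusted p = 0.0679, limma). Ces4a, a carboxylesterase, had 6.60, 6.81 and 7.30 with XCT790 plus T3, against 7.47, 8.32 and 8.31 with T3 alone. Ppp1r3c, which brings protein phosphatase 1 to glycogen, had 9.92, 10.76 and 11.37 with XCT790 plus T3, against 11.50, 11.75 and 12.00 with T3 alone. The groups did not overlap in these 3 genes. Differences of Gfra1, the receptor of the neurotrophic factor GDNF, of the glutathione transferase Gstp2 and of Wdr89 were −1.09, −1.04 and −0.99. Those of the zinc transporter Slc39a1, the peptide-amidating enzyme Pam, the complement subunit C8a and the pseudogene Mug-ps1 were −0.95, −0.90, −0.89 and −0.85. Gstp1, of the same class as Gstp2, had 13.58, 13.78 and 13.92 with XCT790 plus T3, against 14.60, 14.31 and 14.35 with T3 alone (difference −0.66, SE 0.12, adjusted p = 0.0742, limma). Gstp1 and Gstp2 are near-identical genes, as Mug-ps1 is to other murinoglobulins, and their probes may share signal.

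Esrra itself did not differ beyond its spread. It had 10.00, 9.90 and 9.92 with XCT790 plus T3, against 9.91, 10.07 and 9.88 with T3 alone, a difference of −0.01 (SE 0.11, 95% interval −0.26 to 0.24, adjusted p = 0.981, limma). Without hormone it rose by 0.57 with XCT790 (SE 0.11, adjusted p = 0.0148, limma), and the difference of both effects, −0.58 (SE 0.16), did not pass (interaction adjusted p = 0.14). XCT790 acts on the receptor protein, which arrays of RNA do not measure. Esrrg, a sister receptor, differed by −0.40 (SE 0.22). The coactivator genes Ppargc1a and Ppargc1b differed by 0.29 (SE 0.20) and 0.06 (SE 0.22).

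Genes known as direct targets of ESRRA were measured in a list of 26, and 0 passed the adjusted test. At an unadjusted p under 0.05 there were 0 higher and 2 lower (7.69%, against 12.7% of all genes). The median difference was −0.06, and for 26 of 26 genes the 95% interval lay within −1 to 1 (96.5% over all genes). The 2 were Sdhb, a subunit of succinate dehydrogenase, and Sirt3, a mitochondrial deacetylase. Sdhb had 10.75, 10.73 and 10.61 with XCT790 plus T3, against 11.12, 11.13 and 10.98 with T3 alone (difference −0.38, SE 0.14). Sirt3 had 10.89, 10.80 and 10.80 with XCT790 plus T3, against 11.15, 11.24 and 11.01 with T3 alone (difference −0.30, SE 0.10). Neither group overlapped the other in these 2 genes. Pdk4, a kinase that limits pyruvate oxidation, differed by 0.04 (SE 0.41), with 7.29 on array 2 of T3 alone against 5.28 and 5.23 on the other two. Of 15 receptors and coregulators of this family, 0 passed, and Med1, a subunit of the Mediator complex, had a difference of −0.39 (SE 0.13).

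Mitochondrial genes differed little. In 10 lists joined, of 277 genes, 0 passed, the median difference was −0.03, and for 274 the interval lay within −1 to 1 (96.5% over all genes). At an unadjusted p under 0.05, 6 were higher (2.17%) and 24 lower (8.66%), against 6.37% of all genes each way. That split was 1 and 61 with median scaling over all probes, and 12 and 17 with median scaling over kept probes. The respiratory chain and ATP synthase, 70 genes, had 0 higher and 6 lower (8.57%) at that p, a median of −0.03 and all 70 intervals within −1 to 1. They included Ndufb2 (−0.36), Ndufb3 (−0.34) and Ndufb11 (−0.55) of complex I, and Atp5h (−0.36) and Atp5d (−0.21) of ATP synthase. Of 22 genes of the citric acid cycle 0 were higher and 4 lower at that p (18.18%, against 12.7% of all genes), with a median of −0.09. Mdh1, the cytosolic malate dehydrogenase, had 7.98, 8.10 and 8.02 with XCT790 plus T3, against 8.53, 8.73 and 8.74 with T3 alone (difference −0.63, SE 0.14, adjusted p = 0.121, limma). Aco1, the cytosolic aconitase that also senses iron, differed by −0.65 (SE 0.20), and Dld, the dehydrogenase shared by the mitochondrial 2-oxoacid complexes, by −0.55 (SE 0.18). Mdh1 and Aco1 are in the list by their reaction, not by their compartment.

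Of 72 mitochondrial ribosomal proteins 1 was higher and 5 lower at an unadjusted p under 0.05 (8.33%, against 12.7% of all genes). These counts were 0 and 17 with median scaling over all probes and 3 and 2 over kept probes. Mrpl16 differed by −0.65 (SE 0.16) and Mrpl51 by 0.48 (SE 0.18). Htra2, a protease of the intermembrane space, had 6.91, 6.82 and 6.60 with XCT790 plus T3, against 7.40, 7.46 and 7.33 with T3 alone. Its groups did not overlap (difference −0.62, SE 0.13, adjusted p = 0.121, limma). Of 25 genes of mitochondrial fatty acid oxidation 0 were higher and 2 lower at an unadjusted p under 0.05 (8%, against 12.7% of all genes). These were the thiolase Acaa2 (−0.35) and the electron-transfer dehydrogenase Etfdh (−0.38). Among 34 mitochondrial carriers 4 were higher and 6 lower at that p (29.41%, against 12.7% of all genes). These counts were 0 and 9 with median scaling over all probes and 6 and 4 over kept probes. Lower carriers included Slc25a16 (−0.39, SE 0.10) and the phosphate carrier Slc25a3 (−0.31, SE 0.10). The 4 lists of mitochondrial and lysosomal turnover joined, 116 genes, had 0 that passed, a median of −0.01 and 116 intervals within −1 to 1 (96.5% over all genes). With an unadjusted p under 0.05, 5 were higher (4.31%) and 4 lower (3.45%), against 6.37% of all genes each way, or 0 and 20 with median scaling over all probes and 8 and 4 over kept probes. Ulk1, the kinase that starts autophagy, differed by 0.10 (SE 0.10), and Dnm1l, the fission GTPase, by 0.13 (SE 0.10). Map1lc3b, the LC3 protein of the autophagosome membrane, had 8.71, 8.52 and 8.89 with XCT790 plus T3, against 8.93, 9.26 and 9.29 with T3 alone (difference −0.45, SE 0.15). Mief1, a receptor for the fission GTPase, differed by −0.48 (SE 0.15). In the lysosome, Atp6v0a1 and Atp6ap1 of the proton pump and the acid lipase Lipa differed by 0.35, 0.32 and 0.34, and the pump subunit Atp6v1c1 by −0.38.

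**Figure D3:**
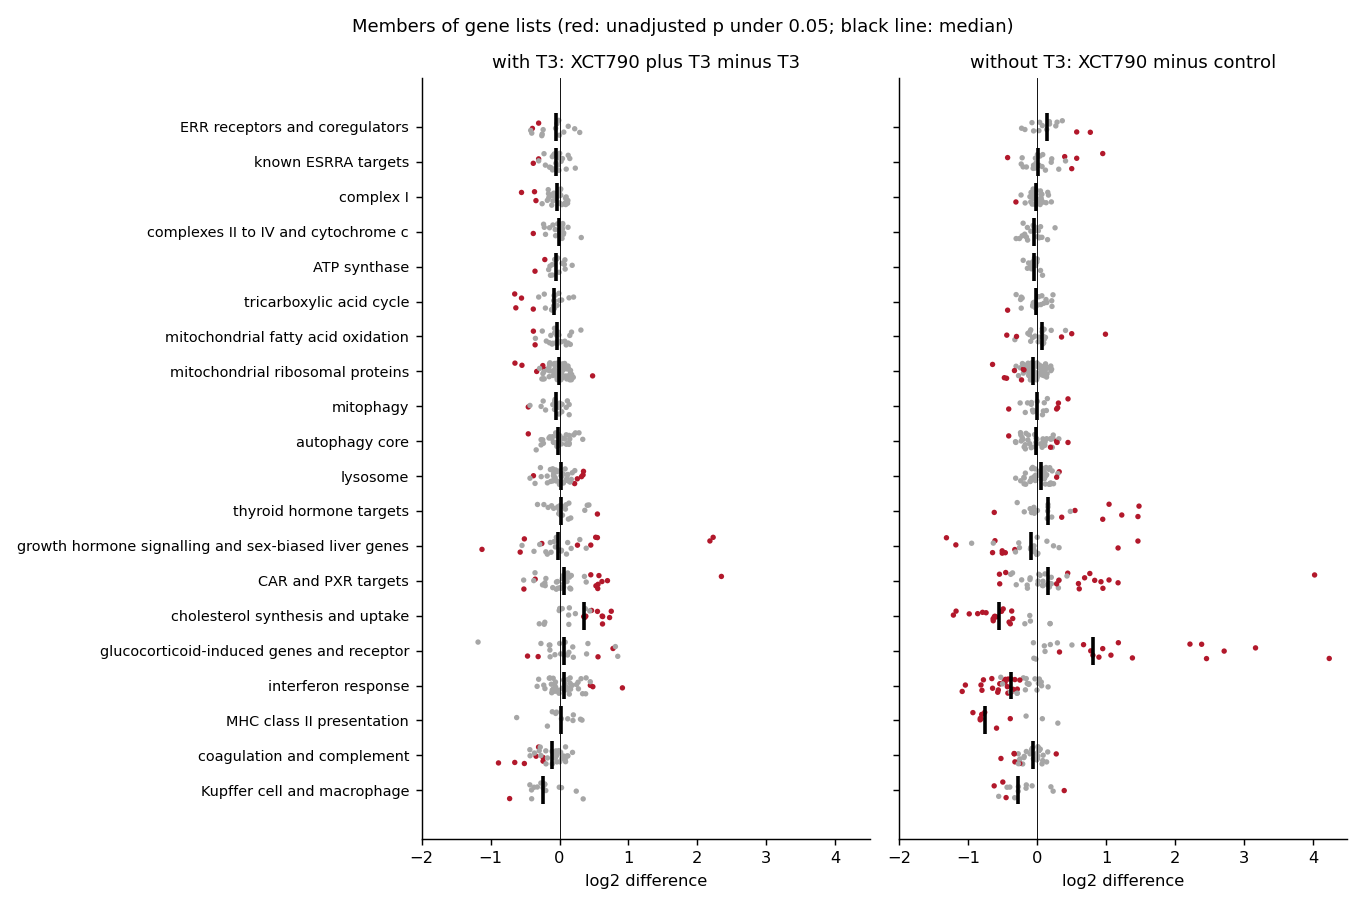
Log2 differences of every tested member of 20 gene lists, with XCT790 plus T3 minus T3 alone on the left and XCT790 alone minus control on the right. Red points have an unadjusted p under 0.05, and the black bars are list medians. Cholesterol genes lie to the right of 0 on the left side (median 0.36) and to the left of 0 on the right side (median −0.56), while the mitochondrial lists sit near 0 on both.

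Known targets of T3 differed little between the groups. Thrsp, a regulator of fatty acid synthesis, had 13.66, 13.56 and 13.52 with XCT790 plus T3, against 13.53, 13.59 and 13.64 with T3 alone (difference −0.01, 95% interval −0.41 to 0.39). Dio1, the deiodinase that makes T3 from thyroxine, had 12.35, 12.16 and 11.90 with XCT790 plus T3, against 12.42, 12.44 and 12.23 with T3 alone. Its groups overlapped (difference −0.23, SE 0.16, 95% interval −0.57 to 0.12). Without hormone Thrsp rose by 1.23 with XCT790 (adjusted p = 0.00319, limma), and the difference of both effects, −1.24 (SE 0.26), did not pass (interaction adjusted p = 0.0596). Of 22 thyroid hormone targets 0 passed, and the median difference was 0.03. At an unadjusted p under 0.05, 1 was higher and 0 lower (4.5%, against 12.7% of all genes). The probes of the receptor genes Thra and Thrb were detected on 0 of 12 arrays and were not tested.

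Of 22 genes of cholesterol synthesis and uptake, 0 passed the adjusted test with hormone. At an unadjusted p under 0.05, 10 were higher and 0 lower (45.45%, against 12.7% of all genes), and the median difference was 0.36, against 0.01 over all genes. In 11 of 22 every array with XCT790 plus T3 lay above every array with T3 alone (10.4% over all genes), and in 0 below (8.85%). Under median scaling over all probes these counts at p were 0 and 0 and the median was 0.10, which is 0.31 above the median of all genes on that scale. Without hormone the same list had a median of −0.56, with 6 genes lower past the adjusted test (2.15% of all genes were). Of the 22, 16 were above 0 with hormone and below 0 without.

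Nsdhl, which removes carbon in the late steps of the pathway, had 8.18, 8.04 and 7.91 with XCT790 plus T3, against 7.57, 6.85 and 7.45 with T3 alone (difference 0.75, SE 0.21, adjusted p = 0.187, limma). Mvd, the mevalonate diphosphate decarboxylase, had 9.11, 8.98 and 8.75 with XCT790 plus T3, against 8.21, 7.84 and 8.62 with T3 alone (difference 0.73, SE 0.21, adjusted p = 0.203, limma). Without hormone Mvd had 6.36, 5.94 and 6.24 with XCT790 alone, against 6.99, 7.54 and 7.55 in controls. Its fall by 1.18 there passed (adjusted p = 0.00778, limma), and so did the difference of both effects, 1.90 (SE 0.29, interaction adjusted p = 0.0178, limma). Cyp51, the lanosterol demethylase, had 10.41, 10.09 and 10.13 with XCT790 plus T3, against 9.77, 9.33 and 9.65 with T3 alone (difference 0.62, SE 0.15, adjusted p = 0.147, limma). It had 8.93, 8.60 and 8.54 with XCT790 alone, against 9.04, 9.24 and 9.27 in controls, and its difference of effects was 1.12 (SE 0.21, interaction adjusted p = 0.0430, limma), which passed in 2 of 12 settings that left out 1 array, those without array 1 of T3 alone or array 1 of XCT790 alone (adjusted p of the lost calls up to 0.0992). Idi1, the isopentenyl diphosphate isomerase, had 7.13, 7.45 and 7.43 with XCT790 plus T3, against 6.89, 6.37 and 7.09 with T3 alone (difference 0.55, SE 0.16). In all 4 the groups did not overlap. Of the 22 genes, 2 passed the interaction test (0.462% of all genes did). Those with an unadjusted interaction p under 0.05 were 16, all with the higher effect under hormone (over all genes 6.69% were above 0 at that p).

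**Figure D4:**
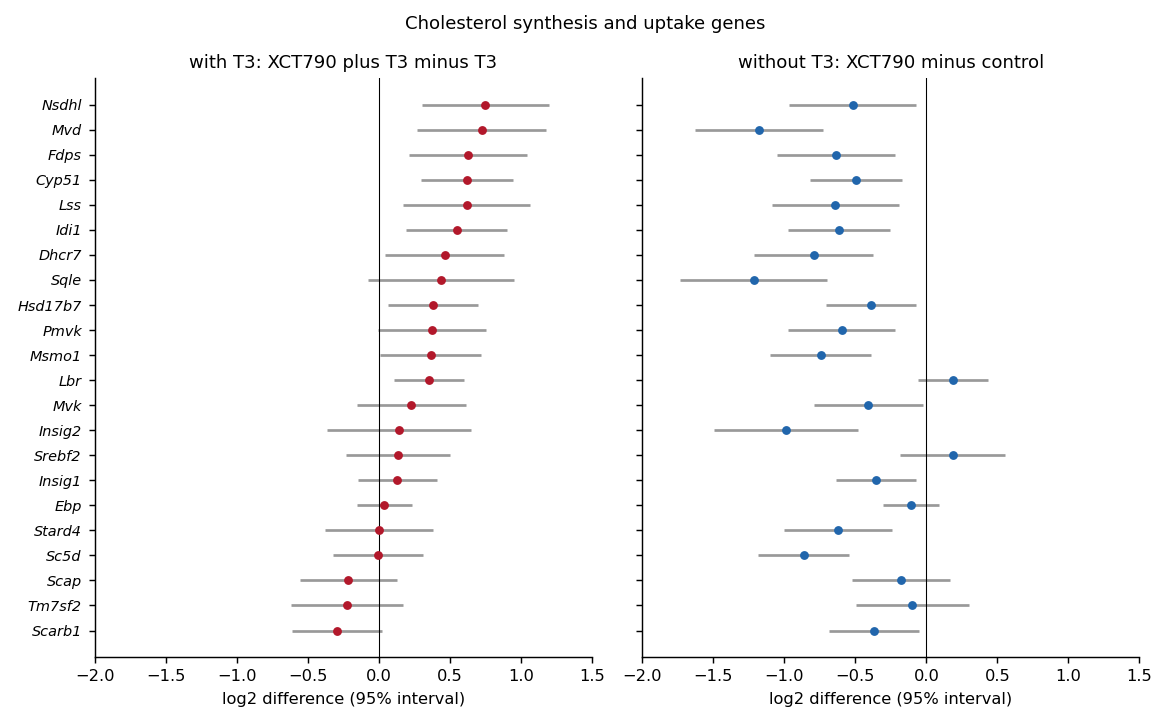
Log2 differences with 95% intervals for the 22 tested genes of cholesterol synthesis and uptake, with XCT790 plus T3 minus T3 alone on the left and XCT790 alone minus control on the right. On the left 18 of 22 points lie above 0, and on the right 20 of 22 lie below.

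Of 36 genes of lipogenesis 0 passed, and the median difference was 0.05. With an unadjusted p under 0.05, 6 were higher and 1 lower, against 6.37% of all genes each way, or 1 and 3 with median scaling over all probes and 8 and 1 over kept probes. Pnpla5, a lipase of the adiponutrin family, had 6.66, 7.52 and 6.90 with XCT790 plus T3, against 6.31, 6.29 and 6.29 with T3 alone (difference 0.73, SE 0.21). Acly, which makes cytosolic acetyl-CoA from citrate, differed by 0.45 (SE 0.14), and Slc25a1, the citrate carrier that feeds it, by 0.34 (SE 0.11). Elovl2, an elongase of polyunsaturated fatty acids, had 9.11, 8.95 and 8.78 with XCT790 plus T3, against 9.91, 9.59 and 9.51 with T3 alone (difference −0.72, SE 0.20, adjusted p = 0.184, limma). Lpl, the lipoprotein lipase, had 10.19, 9.86 and 9.99 with XCT790 plus T3, against 9.54, 9.13 and 9.65 with T3 alone (difference 0.57, SE 0.19). Pnpla5, Elovl2 and Lpl did not overlap between the groups.

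Acot3 and Acot4, acyl-CoA thioesterases known as targets of the fatty acid receptor PPARA, were higher with XCT790 in both settings but passed only without hormone. Acot3 had 8.04, 7.90 and 7.13 with XCT790 plus T3, against 6.65, 6.73 and 5.08 with T3 alone (difference 1.53, SE 0.46, adjusted p = 0.222, limma), and rose by 2.83 without hormone (adjusted p = 0.00471). Acot4 had 8.09, 8.05 and 7.66 with XCT790 plus T3, against 7.22, 7.47 and 6.54 with T3 alone (difference 0.86, SE 0.22, adjusted p = 0.164, limma), and rose by 1.16 without hormone (adjusted p = 0.0111). Array 3 of T3 alone was the lowest of its group in both genes, which are close relatives. Of 33 genes of the PPARA list 0 passed, and the median difference was 0.06. At an unadjusted p under 0.05, 3 were higher and 2 lower (15.15%, against 12.7% of all genes), or 2 and 6 with median scaling over all probes. Plin2, the lipid droplet coat protein, differed by −0.49 (SE 0.20) with hormone and fell by 0.81 without (adjusted p = 0.0422, limma).

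Of 23 glucocorticoid-induced genes 0 passed with hormone, and the median difference was 0.07. At an unadjusted p under 0.05, 2 were higher and 2 lower (17.39%, against 12.7% of all genes), or 1 and 4 with median scaling over all probes. Without hormone 10 of the 23 passed higher (2.29% of all genes did), and the median was 0.81. At an unadjusted interaction p under 0.05 there were 13, all with the lower effect under hormone (5.43% of all genes were below 0 at that p). Of them, 2 passed the adjusted interaction test (0.462% of all genes did). Fkbp5, a co-chaperone of the glucocorticoid receptor, had 9.64, 9.77 and 9.65 with XCT790 plus T3, against 8.67, 9.46 and 9.69 with T3 alone (difference 0.41, SE 0.23, adjusted p = 0.489, limma). It had 10.23, 9.64 and 9.82 with XCT790 alone, against 6.53, 6.70 and 6.97 in controls. The controls were thus the only group with low Fkbp5, and the difference of effects was −2.75 (SE 0.33, interaction adjusted p = 0.00596, limma). Lpin1, a phosphatidate phosphatase, had 10.11, 10.14 and 10.62 with XCT790 plus T3, against 9.90, 10.78 and 10.64 with T3 alone. It had 10.74, 10.46 and 10.38 with XCT790 alone, against 7.60, 7.95 and 7.90 in controls (difference of effects −2.86, SE 0.31, interaction adjusted p = 0.00422, limma).

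The arrays of T3 alone spread widely in such genes. Mt1, a metal-binding metallothionein, had 15.08, 14.93 and 15.18 with XCT790 plus T3, against 12.79, 14.51 and 15.47 with T3 alone (difference 0.81, SE 0.51, adjusted p = 0.548, limma). Without array 1 of T3 alone that difference was 0.08. Zbtb16, a zinc finger repressor, had 7.33, 7.66 and 7.30 with XCT790 plus T3, against 5.76, 7.52 and 6.67 with T3 alone (difference 0.78, SE 0.32), and 0.33 without that array. Array 1 was the lowest of T3 alone in Fkbp5, Mt1, Mt2 and Zbtb16. Controls had no injection per the labels, and what part injection had in the values without hormone was not tested.

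Of 43 interferon-responsive genes 0 passed with hormone, and the median difference was 0.07. At an unadjusted p under 0.05, 3 were higher and 0 lower (6.98%, against 12.7% of all genes). With median scaling over all probes these counts were 1 and 4 and the median was −0.20. Without hormone the median was −0.38 and 5 of the 43 were lower past the adjusted test (2.15% of all genes were). At an unadjusted interaction p under 0.05 there were 17, all above 0 (6.69% of all genes were), and 0 passed the adjusted interaction test. Igtp, an interferon-induced GTPase, had 9.59, 10.40 and 10.38 with XCT790 plus T3, against 9.46, 9.10 and 9.07 with T3 alone (difference 0.91, SE 0.26, adjusted p = 0.196, limma). Isg15, a ubiquitin-like protein, had 7.76, 8.05 and 8.10 with XCT790 plus T3, against 7.61, 7.17 and 7.67 with T3 alone (difference 0.48, SE 0.16), and fell by 0.65 without hormone (adjusted p = 0.0415, limma). Both differed without overlap with hormone. Of 11 genes of MHC class II presentation 0 were higher and 0 lower at an unadjusted p under 0.05 with hormone (median 0.03), while without hormone the median was −0.76 and 8 were lower at that p (9.15% of all genes were), with 0 past the adjusted test of limma.

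Of 35 secreted proteins of the complement and clotting systems 0 passed, and the median was −0.11. Those with an unadjusted p under 0.05 were 0 higher and 7 lower (20%, against 6.37% lower over all genes), or 3 and 4 with median scaling over kept probes and 0 and 14 over all probes. Cfb, complement factor B, had 10.96, 10.76 and 11.18 with XCT790 plus T3, against 11.46, 11.81 and 11.57 with T3 alone (difference −0.65, SE 0.18, adjusted p = 0.196, limma). F5, coagulation factor V, differed by −0.34 (SE 0.11). Of 54 cytosolic ribosomal proteins 0 passed, and the median was −0.04. At an unadjusted p under 0.05, 0 were higher and 9 lower (16.67%, against 6.37% lower over all genes). These counts were 2 and 1 with median scaling over kept probes and 0 and 16 over all probes. Rpl7a, a large-subunit protein, had 9.59, 9.30 and 9.72 with XCT790 plus T3, against 9.99, 10.06 and 9.88 with T3 alone (difference −0.44, SE 0.11).

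Of 53 genes of the urea cycle and amino acid catabolism 0 passed. At an unadjusted p under 0.05, 6 were higher and 4 lower, against 6.37% of all genes each way, or 0 and 7 with median scaling over all probes and 11 and 2 over kept probes. Bhmt, which remakes methionine from betaine, had 9.95, 10.07 and 9.77 with XCT790 plus T3, against 9.48, 9.20 and 9.23 with T3 alone (difference 0.63, SE 0.11, adjusted p = 0.0742, limma). Gnmt, the glycine methyltransferase, had 14.43, 14.34 and 14.05 with XCT790 plus T3, against 14.06, 13.77 and 13.69 with T3 alone (difference 0.43, SE 0.14). Bhmt did not overlap between the groups, whereas Gnmt did by a narrow margin. Hmox1, the heme oxygenase of the stress response, had 6.59, 5.85 and 6.71 with XCT790 plus T3, against 5.34, 5.33 and 5.57 with T3 alone (difference 0.97, SE 0.28, adjusted p = 0.203, limma). Angptl8, an insulin-induced inhibitor of lipoprotein lipase, differed by 0.90 (SE 0.38).

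Markers of liver cell types were summed to check the tissue and its cells. The summed linear signal of 16 hepatocyte markers was 287765 to 302631 with XCT790 plus T3 and 295722 to 308782 with T3 alone. Of 15 Kupffer cell and macrophage markers 0 passed, 12 were below 0, and the median was −0.24. Without array 2 of XCT790 plus T3 that median was −0.04, and it was −0.36 without array 3 of that group. The number lower at an unadjusted p under 0.05 was 1 (6.67%, against 6.37% of all genes). It was 1 to 6 when 1 array was left out, and 7 with median scaling over all probes. Their summed signal was 12673 to 16352 with XCT790 plus T3 and 14116 to 14198 with T3 alone. Timd4, a receptor for dying cells on resident macrophages, had 6.23, 6.29 and 6.55 with XCT790 plus T3, against 7.15, 6.98 and 7.11 with T3 alone (difference −0.72, SE 0.16, adjusted p = 0.121, limma). Sums of 19 endothelial markers were 11937 to 13003 with XCT790 plus T3 and 12479 to 13859 with T3 alone. Of the 19, 3 were lower at an unadjusted p under 0.05 (15.79%, against 6.37% of all genes), Dnase1l3, Fcgr2b and Mrc1. Sums of 14 stellate cell markers were 10084 to 11071 with XCT790 plus T3 and 10177 to 11503 with T3 alone. Of 12 bile duct markers 4 were tested, with sums of 527 to 585 with XCT790 plus T3 and 398 to 459 with T3 alone. Their median difference was 0.16, the lowest was −0.0067, and 0 passed. The highest was Sox9, a bile duct transcription factor that is part of these sums. Sox9 had 8.44, 8.25 and 7.94 with XCT790 plus T3, against 7.65, 7.47 and 7.37 with T3 alone (difference 0.71, SE 0.20). What part the cell mixture had in the gene results was not tested.

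More genes passed the adjusted test for XCT790 without hormone than with it. Without hormone, XCT790 and injection itself cannot be told apart, since the controls had no injection. In the arrays without T3, which share none with the main comparison, 433 genes passed (4.44%), 223 higher (2.29%) and 210 lower (2.15%). With hormone 9 passed (0.0923%). The gap was narrower at an unadjusted p under 0.05, with 1748 genes without hormone (17.9%) against 1242 with it (12.7%). Groups of 3 arrays did not overlap for 2138 genes without hormone (21.9%) and for 1879 with it (19.3%). The 223 higher genes had a median difference of 0.14 with hormone and 0.75 without, and 220 of them were smaller in size with hormone. The 210 lower genes had −0.08 with hormone and −0.70 without, and 207 were smaller in size with it. Genes chosen for a large value in 1 comparison tend to be smaller in another, so these medians are a description. Over all 9747 genes the 2 sets of differences correlated at r = 0.224 (rho = 0.217), a description across genes that are not independent replicates.

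The test of the difference itself called 45 genes (0.462%), 18 with a higher effect under hormone (0.185%) and 27 with a lower one (0.277%). It rests on the same controls without injection, so XCT790 and injection cannot be told apart in it either. Of these 45, 40 also passed without hormone and 3 with it, A1bg, Cux2 and Dlx1as. In 33 the means of XCT790 plus T3 and T3 alone lay within 0.5 on the log2 scale. The 2 effects had opposite signs in 32, and 5 were larger in size with hormone. The count was 96 without array 1 of T3 alone and 19, 22 and 20 without array 2 or 3 of that group or array 1 of XCT790 plus T3. It was 23 without array 2 of XCT790 plus T3, 21 and 25 without array 1 or 3 of XCT790 alone, and 22, 28 and 20 without control array 1, 2 or 3.

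**Figure D5:**
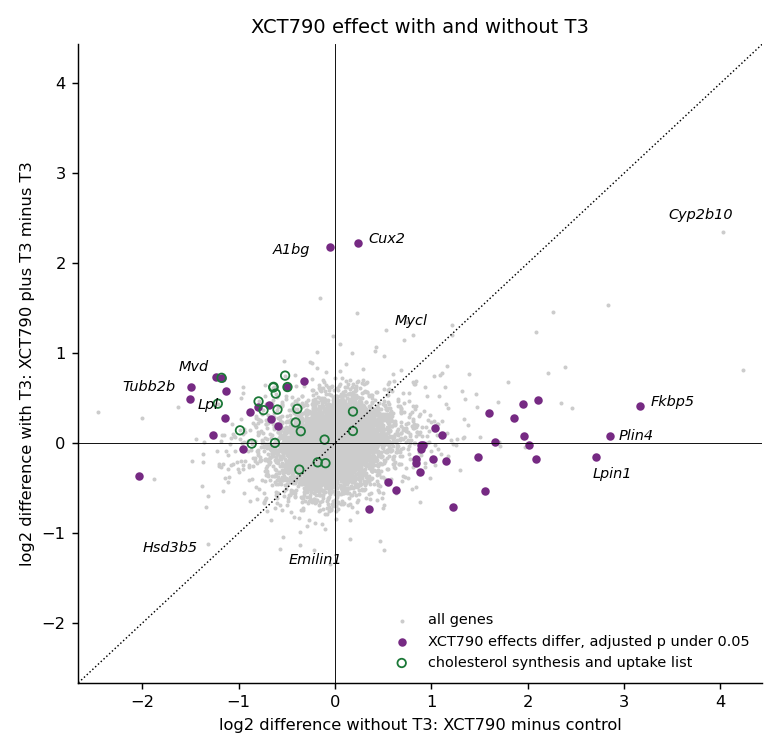
Each point is 1 of 9747 genes, with the log2 effect of XCT790 under T3 on the y axis and without T3 on the x axis. Purple points are the 45 genes past the interaction test, green circles are the cholesterol genes, and the dotted line marks equal effects. Most purple points spread along the x axis near 0 on the y axis, whereas A1bg and Cux2 stand high on the y axis near 0 on the x axis. Signals of A1bg and Cux2 without T3 were at or near background.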

How the data were processed

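RNA from whole liver was labelled with biotin and hybridised to Illumina mouse bead arrays, 12 in 4 groups of 3. The authors deposited a non-normalized linear intensity and a detection p-value for each of 45281 probes per array, per the file headers. They also deposited a matrix of quantile-normalized intensity values, used only as an alternative. Partek 6.6 is named in the submitters' processing notes. Which step it served is not stated there.

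From the non-normalized table, background was corrected with normexp from the detection p-values (offset 16), followed by quantile normalization and log2, in limma 3.58.1 under R 4.3.3. Probes were kept where 3 or more of 12 arrays detected them (detection p below 0.05), which left 17218. Of these, 14446 had 1 gene symbol in GEO's platform annotation, and the probe with the highest mean stood for each of 9747 genes. Probes without a single symbol (2772 kept) were tested apart, and 0 passed an adjusted p of 0.05 in limma, with 355 at an unadjusted p under 0.05. Linear models over all 12 arrays with empirical Bayes moderation gave each contrast, two-sided, with Benjamini-Hochberg adjustment over all genes. The difference of XCT790 effects was an interaction contrast. The procedure was tested on simulated data.

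Named genes were those past the adjusted test, the 12 largest differences in each direction at an unadjusted p under 0.01 without overlap of the groups, in each list the 4 members of lowest p where that was under 0.05, the 6 largest interaction differences in each direction, and a set of ESRRA, thyroid hormone and stress genes. The members and the 57 gene lists were chosen with earlier results of these data known. Same-numbered arrays did not deviate together (correlations of deviations between XCT790 plus T3 and T3 alone of 0.0823, −0.0184 and 0.131), so the numbers were not taken as pairs. Alternatives changed background correction, scaling, probe filter, probe choice, array weights, the arrays in the fit and the replicate block. The number of arrays limits the precision.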

Additional observations from a re-analysis of the deposited data

Results flagged for a closer look

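The interaction test of XCT790 effects with and without T3 passed in 15 named genes (adjusted p under 0.05, limma over all 12 arrays). In the effect without T3, XCT790 and injection cannot be told apart. In the first set the measured effect was higher under hormone. The measured difference of effects was 2.23 in A1bg, 1.99 in Cux2 and 1.01 in Dlx1as, whose array values are given above. These 3 rest on groups at background, so they are no exact sizes and do not settle whether the effects differed. A1bg was detected on 0 of 6 arrays without hormone and Cux2 on 0 of 3 controls. Dlx1as was detected on 0 of 3 arrays with T3 alone and 0 of 3 with XCT790 alone. The difference of effects was 1.90 in Mvd and 1.12 in Cyp51, both of cholesterol synthesis.

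Tubb2b, a beta-tubulin, had 7.93, 7.88 and 7.68 with XCT790 plus T3, against 7.72, 7.29 and 6.61 with T3 alone. It had 7.23, 8.11 and 7.35 with XCT790 alone, against 9.13, 8.85 and 9.20 in controls, a difference of effects of 2.12. Arhgap26 had 7.20, 7.51 and 7.37 with XCT790 plus T3, against 6.86, 6.79 and 6.95 with T3 alone, and 5.33, 6.28 and 5.47 with XCT790 alone, against 7.16, 7.22 and 7.20 in controls. Its difference of effects was 1.99, and XCT790 alone was the group that stood apart. Slc1a4, a neutral amino acid transporter, fell by 1.24 without hormone and had a difference of effects of 1.98. Lpl fell by 1.13 without hormone and had a difference of effects of 1.70.

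In the second set the effect was lower under hormone. The difference of effects was −2.86 in Lpin1 and −2.75 in Fkbp5. Plin4, a lipid droplet coat protein, had 7.51, 7.70 and 8.20 with XCT790 plus T3, against 7.49, 8.38 and 7.31 with T3 alone. It had 9.62, 9.51 and 8.31 with XCT790 alone, against 6.64, 6.05 and 6.20 in controls, a difference of effects of −2.77. Eif4ebp3, a repressor of translation, rose by 2.08 without hormone and had a difference of effects of −2.26. Tom1l2, an adaptor of vesicle transport, was not above background in controls and was at least 2.23-fold higher with XCT790 alone (adjusted p = 0.00395, limma). Its measured difference of effects, −2.08, is therefore no exact size. Tmc7, a transmembrane channel-like protein, rose by 2.01 without hormone and had a difference of effects of −2.03. In these 6 genes the controls, which had no injection, were the lowest group.

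Many of these 15 calls depended on single arrays. Of 12 settings that left out 1 array, the interaction call was kept in 2 for Cyp51 and for Tubb2b, in 3 for Cux2 and for Plin4, in 7 for Tom1l2, in 9 for Lpl and in 10 for Mvd and for Eif4ebp3. Cyp51, Tubb2b, Cux2 and Plin4 also lost it with the replicate number as a block (adjusted p = 0.0574 in each, limma). The calls of A1bg, Dlx1as, Arhgap26, Slc1a4, Lpin1, Fkbp5 and Tmc7 were kept in all 12.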

How the results depend on the processing

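The count of 9 genes past the adjusted test was 18 with median scaling over all probes, 17 without background correction, 14 with a normexp offset of 50, 17 from the deposited matrix, 3 with the replicate number as a block, 1 with only the 6 arrays given T3 and 4 with median scaling over kept probes, an alternative chosen after seeing the data. Leaving out 1 array gave 1 to 9. With no filter on dim probes 2026 genes had an unadjusted p under 0.05 and 18710 of 19057 had intervals within −1 to 1, since more genes were tested. The interaction count of 45 was 70 with cyclic loess, 143 without background correction, 126 with offset 50, 141 from the deposited matrix, 27 with no filter, 91 with a strict filter, 80 with array weights and 25 with the replicate block, and 19 to 96 when 1 array was left out. The cause of these changes was not tested. Same-numbered arrays correlated best with their own number in 2 of 3 cases, and the block kept A1bg, Cux2 and Mycl.

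Among values of named genes, 4014 kept their direction and side of the threshold, 149 no longer passed, 29 newly passed and 32 changed sign, all of these 32 in genes that did not pass. Under median scaling over all probes the difference was −0.21 in Plin4, −0.21 in Ppargc1b, −0.15 in Ulk1, −0.12 in Dnm1l and −0.17 in Pdk4. Under median scaling over kept probes the difference was 0.033 in Esrra, 0.092 in Thrsp and 0.0019 in Cyp2e1. Under cyclic loess the difference was 0.00023 in Esrra. With the mean over probes the difference was −0.0101 in Dnm1l and −0.038 in Tpi1. Without background correction the difference was −0.048 in Pdk4. With a normexp offset of 50 the difference was −0.0396 in Pdk4. From the deposited matrix the difference was −0.049 in Pdk4. Leaving out 1 array gave a range of −0.42 to 0.021 in Lpin1, −0.13 to 0.40 in Plin4, −0.41 to 0.11 in Eif4ebp3, −0.14 to 0.069 in Tmc7 and −0.049 to 0.048 in Esrra. For the others that changed sign the range was −0.022 to 0.22 in Ppargc1b, −0.051 to 0.019 in Thrsp, −0.31 to 0.72 in Pdk4 and −0.72 to 1.45 in Mt2.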
